A study of Mus musculus with 9 samples.

Results

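The 45 genes described here are interferon-stimulated genes of the mouse, a set named by known function and listed without the large interferon-inducible families of guanylate-binding and immunity-related GTPases. A gene was measured where a row of the deposited array table carried its symbol and no other, and the row of highest mean stood for genes with several rows. By this rule 40 of the 45 were measured, among 22180 genes of the table. Oas1a, Dtx3l, Ifi47 and Ifi27l2a lay only on rows shared with other genes, and Ifi44 was not analysed here. The name of the set held only in part, because the measured Mx1 and Mx2 are dynamin-like GTPases and the unmeasured Ifi47 is an immunity-related GTPase.

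The samples were gamma-delta T cells of C57BL/6 mice, with no treatment named, profiled as total RNA on Affymetrix Mouse Gene 2.0 ST arrays. There were 9 arrays in 3 subsets of 3 labelled biological replicates. IELs were taken from small intestinal epithelium, and the Naive-like and Type-1 subsets came from peripheral lymph nodes. Cells were stained with a panel of antibodies and purified, but the gate of each subset, the age and sex of the mice, and any pooling of animals are not stated in the labels. No subset carried a transgene or a deletion in the labels. IELs thus differ from both other subsets in tissue and in the way the cells were released, while Type-1 and Naive-like cells share a tissue. In such bulk samples, fewer cells of a type and less RNA per cell cannot be told apart.

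Type I interferons bind a receptor of the chains Ifnar1 and Ifnar2, whose kinases Jak1 and Tyk2 phosphorylate STAT proteins. Stat2 and Irf9 then enter a complex that binds the interferon-stimulated response element, a repeat of the letters GAAA found near the start of many of these genes. The products sense viral RNA, degrade it, block translation or virus release, and in part feed back on the pathway, and T cells hold many of them at a resting level without infection.

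Promoters are shown first because the response element is what many of these genes have in common. RefSeq promoters of the build GRCm38.p6, from 250 bases before to 50 bases after each start site, were matched for 34 of the 45 genes. Parp14, Rtp4, Mx1, Mx2, Oas2, Oas1b, Usp18, Ifi27l2a, Zbp1, Dhx58 and Parp9 had no entry. The motif searched was GAAA, then any 2 letters (NN), then GAAA again, on both strands and with overlapping matches kept. It stood in 15 of the 34 promoters, or 44.1% (95% exact binomial interval 27.2% to 62.1%, for counting error only), against 1079 of 27025 genes in the whole table, or 3.99%. The longer form, with CT after the second GAAA, whose matches are a subset of these, stood in 8 of the 34 (23.5%) and in 82 of all genes (0.303%). TTCNNNGAA, the element of the interferon-gamma pathway, was added after the other motifs had been counted. It stood in 6 of the 34 (17.6%, 95% exact binomial interval 6.76% to 34.5%) against 2582 genes (9.55%), a share inside that interval. The 250 bases before the start are printed 5′ to 3′ on the strand of the gene, with the motif in capitals, for the first 5 genes with a motif in the order of their difference among subsets, and for Isg15, which was chosen after its values were seen because its subset means were close. On the strand opposite to the gene, GAAA reads as TTTC. Their positions are chr19:34640639-34640888 on the plus strand for Ifit1, and on the minus strand chr14:59341331-59341580 for Phf11b, chr8:71537473-71537722 for Bst2, chr5:120777660-120777909 for Oas3, chr7:104465194-104465443 for Trim30a and chr4:156200819-156201068 for Isg15.
Ifit1: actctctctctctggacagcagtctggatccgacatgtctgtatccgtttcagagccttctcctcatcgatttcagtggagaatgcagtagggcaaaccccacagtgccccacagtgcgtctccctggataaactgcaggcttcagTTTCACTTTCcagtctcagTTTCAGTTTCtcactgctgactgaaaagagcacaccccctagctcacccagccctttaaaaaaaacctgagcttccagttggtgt
Phf11b: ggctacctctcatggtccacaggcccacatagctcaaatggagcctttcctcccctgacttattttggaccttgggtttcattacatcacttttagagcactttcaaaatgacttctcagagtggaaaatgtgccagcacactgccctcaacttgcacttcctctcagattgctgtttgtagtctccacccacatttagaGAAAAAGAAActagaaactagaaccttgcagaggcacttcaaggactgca
Bst2: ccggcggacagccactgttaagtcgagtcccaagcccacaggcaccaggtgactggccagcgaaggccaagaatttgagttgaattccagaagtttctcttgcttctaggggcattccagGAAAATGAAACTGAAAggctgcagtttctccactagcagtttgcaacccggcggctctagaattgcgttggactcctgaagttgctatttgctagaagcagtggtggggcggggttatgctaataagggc
Oas3: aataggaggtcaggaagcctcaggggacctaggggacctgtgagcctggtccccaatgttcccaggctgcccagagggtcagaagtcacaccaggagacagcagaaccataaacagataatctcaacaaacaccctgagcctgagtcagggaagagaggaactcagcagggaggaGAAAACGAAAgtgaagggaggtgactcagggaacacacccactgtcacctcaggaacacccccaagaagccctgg
Trim30a: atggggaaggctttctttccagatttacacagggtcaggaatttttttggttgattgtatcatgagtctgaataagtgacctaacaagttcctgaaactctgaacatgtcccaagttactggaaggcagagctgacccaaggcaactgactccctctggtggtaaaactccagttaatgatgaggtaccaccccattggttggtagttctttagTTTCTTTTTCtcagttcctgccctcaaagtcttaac
Isg15: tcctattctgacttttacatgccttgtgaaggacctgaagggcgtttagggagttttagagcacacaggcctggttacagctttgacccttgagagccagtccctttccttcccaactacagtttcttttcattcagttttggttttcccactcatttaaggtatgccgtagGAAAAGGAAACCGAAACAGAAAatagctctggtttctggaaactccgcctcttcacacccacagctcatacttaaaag

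Ifit1 held 2 motifs, beginning 104 and 85 bases before the start, both on the opposite strand and both of the longer form. The motifs printed for Phf11b, Oas3 and Trim30a began 50, 75 and 36 bases before it. A second promoter entry of Trim30a, not printed, held a match that began 2 bases after its start. Bst2 held 2 overlapping matches from 130 and 124 bases before the start, and Isg15 held 3 overlapping matches from 78, 72 and 66 bases before it. A match of letters is a description of the sequence and not a measured site.

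**Figure D1:**
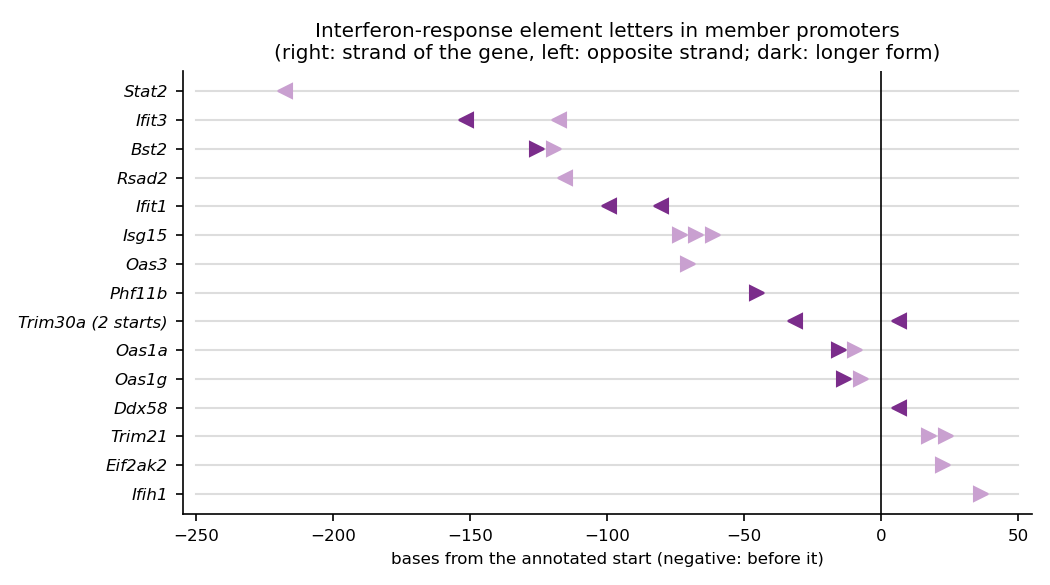
Positions of matches to GAAA-NN-GAAA in the promoters of the 15 interferon-stimulated genes that hold one, in bases from the start site; triangles pointing right lie on the strand of the gene and those pointing left on the opposite strand, and dark ones belong to the longer form. Most matches lie within 160 bases before the start, and those of Ifih1, Ddx58, Trim21 and Eif2ak2 lie only after it.

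IELs had the lowest mean of the 3 subsets for 34 of the 40 genes, and 39 of the 40 were lower by sign in IELs than in Naive-like cells. Among them 14 passed the test as lower and none as higher, where lower calls made up 1.62%, higher calls 3.57% and calls in either direction 5.19% of all genes tested (limma, Benjamini-Hochberg adjusted p under 0.05). The median difference over the 40 genes was -0.79 on the log2 scale, with a range of -2.94 to 0.31, beside a median of -0.01 over all genes. At an unadjusted p under 0.05, 27 of the 40 were lower in IELs, against 5.61% of all genes. All 3 IEL arrays lay below all 3 Naive-like arrays for 26 of the 40, a pattern held by 9.25% of all genes. The genes that fell were the oligoadenylate synthetases Oasl2, Oas2, Oas3 and Oas1b, the effectors Ifit1, Bst2, Mx2 and Cmpk2, the ubiquitin-pathway genes Usp18 and Trim25, Phf11b, Sp100, Parp9 and the transcription factor Irf9.

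By their median difference, these genes stood nearer to Naive-like cells than to IELs in Type-1 cells. Against Type-1 cells, 8 of the 40 were lower in IELs and none higher, where lower calls made up 1.41% of all genes, higher calls 3.73% and calls in either direction 5.14%. At an unadjusted p under 0.05, 16 of the 40 were lower, against 6.61% of all genes, and all IEL arrays lay below all Type-1 arrays for 14, against 9.78%. These were Usp18, Oasl2, Phf11b, Oas2, Ifit1, Oas3, Sp100 and Bst2, all among the 14 named above, and both comparisons use the same IEL arrays. The median difference was -0.52, and 34 of the 40 were lower by sign. Between Type-1 and Naive-like cells, limma called none of the 40, where 0.284% of all genes were called and lower calls were 0.0721%. At an unadjusted p under 0.05, 8 of the 40 were lower in Type-1 cells, against 3.52% of all genes, and by sign 31 were lower and 9 higher, with a median of -0.27. All Type-1 arrays lay below all Naive-like arrays for 7 of the 40 and above them for none, where 5.11% and 6.33% of all genes did so. The means ran in the order IELs, Type-1, Naive-like for 26 genes. A test over the 3 subsets at once passed for 12 of the 40, where 5.41% of all genes passed, and all 12 were also called between IELs and Naive-like cells.

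**Figure D2:**
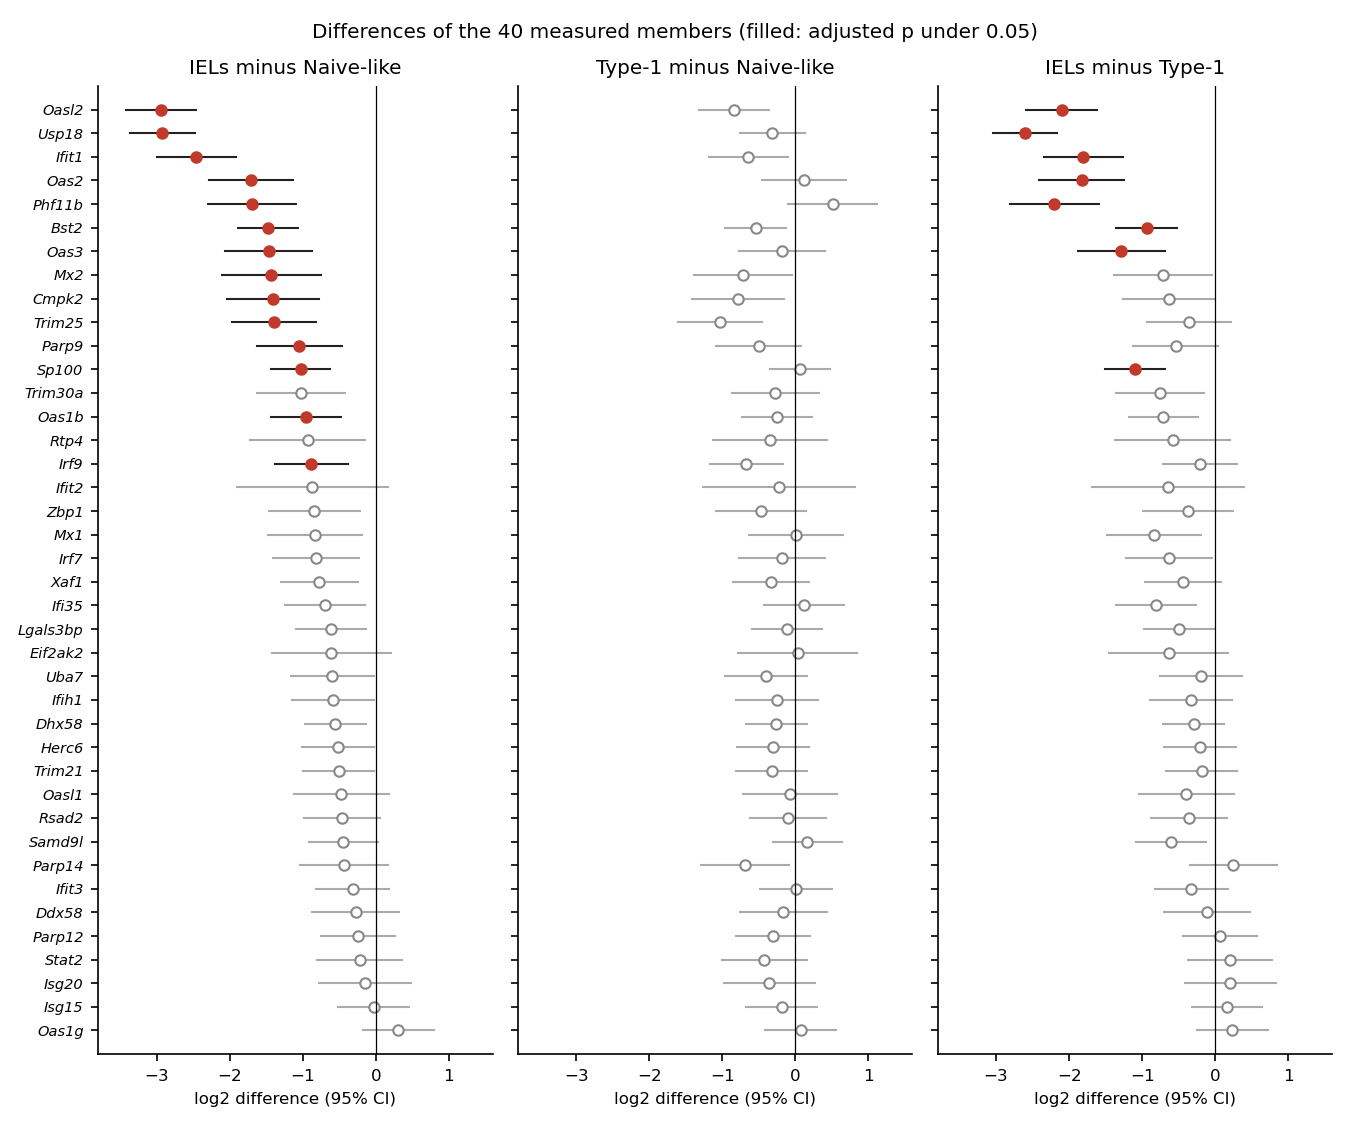
Differences of subset means on the log2 scale with 95% confidence intervals for the 40 measured genes in the 3 pairwise comparisons; filled points have an adjusted p under 0.05. The 14 filled points of IELs against Naive-like cells and the 8 of IELs against Type-1 cells all lie below 0, and the panel of Type-1 against Naive-like cells has none.

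Some other transcripts also differed between IELs and the lymph node subsets, where tissue and the way the cells were released cannot be told apart. Of 31 measured genes of the intestinal epithelium, 20 rose and none fell in IELs against Naive-like cells, where 3.57% of all genes rose and 1.62% fell, and their summed linear level was 1977 to 3624 in IELs, 562 to 634 in Naive-like and 567 to 659 in Type-1 cells. In IELs 4 of the 31 lay under the median of all genes, against 23 and 22 in the other subsets. Of 15 heat shock genes 11 rose in the same comparison, with sums of 13569 to 14569, 3300 to 4687 and 3981 to 6515 in the same order. Among 20 immediate early genes 9 rose and 1 fell, with sums of 7960 to 14341, 3378 to 5332 and 2583 to 5233. The part of these transcripts in the differences of the interferon-stimulated genes was not tested. All 5 measured genes of the T cell receptor complex and its signalling lay above the median of all genes in every subset, with sums of 11757 to 14404, 8924 to 11413 and 8371 to 9775. None was called between IELs and Naive-like cells (4 of 5 higher by sign, median 0.54), and 2, Cd3g and Zap70, were higher in IELs than in Type-1 cells (median 0.99). Of 9 B cell genes 8 lay under the median of all genes in every subset, and so did all 7 neutrophil genes. Markers of plasmacytoid dendritic cells, the major makers of type I interferon, summed to 718 to 800, 1210 to 1241 and 721 to 821, but that list of 8 includes Bst2 itself and genes that T cells use, such as Ccr9. Between IELs and Naive-like cells Irf8 and Klk1 rose and Bst2 fell (median 0.07), and between IELs and Type-1 cells 4 rose and Bst2 fell (median 0.68). Siglech, the most specific of them, stood at 4.19, 4.31 and 4.13. Macrophage genes summed to 306 to 359, 207 to 243 and 213 to 284, and 2 of 11, Lyz1 and Itgam, rose in IELs against Naive-like cells. Lyz1 is also in the list of the intestinal epithelium, and 7 of the 11 were lower by sign (median -0.01). Dendritic cell genes summed to 847 to 1043, 391 to 640 and 328 to 395, where Itgax rose and Ccr7 fell in that comparison. Their differences there ran from -2.94 to 4.86, with 5 of 8 lower by sign and a median of -0.12. Arrays give no true zero, and the files carry no detection call, so none of these markers can be given as absent.

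The sensors of viral nucleic acid showed no call in any comparison. Ddx58, Ifih1 and Dhx58 are the cytoplasmic RNA helicases of the RIG-I family, and Zbp1 binds left-handed nucleic acid and can start necroptosis. All 4 were lower by sign in IELs than in Naive-like cells, from -0.84 to -0.28. Zbp1, the sensor of highest mean, measured 7.45, 8.24 and 8.12 in IELs, 8.75, 8.25 and 9.32 in Naive-like cells and 8.35, 8.22 and 8.34 in Type-1 cells, as log2 intensity. IELs 2 came close to the lowest Naive-like array, and the Type-1 arrays overlapped with Naive-like cells. The difference of -0.84 ± 0.28 (SE) did not pass (limma adjusted p = 0.144, and 0.0366 after a further quantile normalization), and those of IELs against Type-1 (-0.37 ± 0.28) and of Type-1 against Naive-like (-0.47 ± 0.28) did not either.

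Of the transcription factors, Irf9 fell in IELs and Irf7 and Stat2 did not pass. Irf9, which gives the response complex its grip on DNA, measured 7.07, 7.37 and 7.58 in IELs, 8.25, 7.85 and 8.57 in Naive-like cells and 7.68, 7.35 and 7.62 in Type-1 cells. All IEL and all Type-1 arrays lay below all Naive-like arrays, and IELs and Type-1 cells overlapped. Its difference between IELs and Naive-like cells was -0.88 ± 0.23 with a limma adjusted p of 0.0466, the weakest of the 14, and leaving out any 1 of 8 of the arrays ended the call (adjusted p from 0.0516 to 0.178). The exception was Naive-like 2. Irf7, which amplifies interferon production, differed by -0.81 ± 0.27 (adjusted p = 0.135, and 0.0431 without Type-1 1), and Stat2 by -0.22 ± 0.26, with a 95% interval of -0.80 to 0.35.

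The antiviral effectors gave 4 lower calls among 11 genes between IELs and Naive-like cells and 2 between IELs and Type-1 cells. Lower calls made up 1.62% and 1.41% of all genes in these comparisons. The median difference of the 11 was -0.83 in the first comparison. Ifit1, which binds viral RNA that lacks the cap methylation of the host, measured 5.60, 4.91 and 5.34 in IELs, 7.69, 7.42 and 8.11 in Naive-like cells and 6.93, 6.98 and 7.37 in Type-1 cells. The 3 subsets did not overlap. Ifit1 was 5.48-fold lower in IELs than in Naive-like cells (-2.45 ± 0.25, limma adjusted p = 6.34e-05) and 3.50-fold lower than in Type-1 cells (-1.81 ± 0.25, adjusted p = 0.000766), while Type-1 against Naive-like cells gave -0.65 ± 0.25 (adjusted p = 0.647). Its relatives on the same chromosome moved less: Ifit2 gave -0.87 ± 0.48 and Ifit3 -0.32 ± 0.23 between IELs and Naive-like cells, neither past the threshold. Genes of this family are alike in sequence, and how the array divides their transcripts was not tested.

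Bst2, or tetherin, holds budding virus at the cell surface. It measured 8.60, 8.48 and 8.12 in IELs, 9.86, 9.92 and 9.84 in Naive-like cells and 9.40, 9.42 and 9.19 in Type-1 cells. The 3 subsets were separate, and the Naive-like arrays lay within 0.08 of each other. It was 2.78-fold lower in IELs than in Naive-like cells (-1.48 ± 0.19, limma adjusted p = 0.000439) and 1.91-fold lower than in Type-1 cells (-0.94 ± 0.19, adjusted p = 0.0125). The second of these calls was lost without IELs 3 (adjusted p = 0.0676) or without Type-1 2 (0.0506).

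Mx2 and Cmpk2 fell in IELs against Naive-like cells and passed in no other pair of subsets. Mx2, a dynamin-like GTPase, measured 3.37, 4.38 and 3.67 in IELs, 4.59, 5.52 and 5.58 in Naive-like cells and 4.66, 4.58 and 4.31 in Type-1 cells. IELs thus overlapped with Type-1 cells and lay wholly below Naive-like cells. The difference was -1.43 ± 0.31 (limma adjusted p = 0.016), and the call was lost without IELs 1, IELs 3, Naive-like 2 or Naive-like 3 (0.0647 to 0.0809). Cmpk2, a mitochondrial nucleotide kinase next to Rsad2 in the genome, measured 6.36, 6.01 and 5.91 in IELs, 7.15, 8.03 and 7.35 in Naive-like cells and 6.91, 6.17 and 7.09 in Type-1 cells. Its Type-1 arrays spanned the gap between the other subsets. The difference between IELs and Naive-like cells was -1.41 ± 0.29 (adjusted p = 0.0116), lost without IELs 2, IELs 3 or Naive-like 2 (0.0537 to 0.0593). Rsad2 itself, the antiviral enzyme viperin, differed by -0.46 ± 0.24 and Mx1 by -0.83 ± 0.30, and neither passed. The rest, the kinase Eif2ak2 at -0.61, Samd9l at -0.44 and the exonuclease Isg20 at -0.15, did not pass either.

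The oligoadenylate synthetases make the second messenger that activates RNase L. In IELs 4 of 6 were called lower against Naive-like cells and 3 of 6 against Type-1 cells, with medians of -1.21 and -0.99. Lower calls made up 1.62% and 1.41% of all genes in these comparisons. These shares were the highest among the groups by role, which are small, and some of the calls rested on single arrays, as given below. Oasl2, a synthetase with ubiquitin-like domains, measured 4.34, 4.65 and 4.50 in IELs, 7.19, 7.71 and 7.40 in Naive-like cells and 6.92, 6.28 and 6.59 in Type-1 cells. Every subset was separate from the others. Oasl2 had the lowest difference of the 40 genes, 7.68-fold lower in IELs than in Naive-like cells (-2.94 ± 0.22, 95% interval -3.43 to -2.46, limma adjusted p = 6.47e-06). It was 4.29-fold lower than in Type-1 cells (-2.10 ± 0.22, adjusted p = 0.000108), and Type-1 against Naive-like cells gave -0.84 ± 0.22 (adjusted p = 0.286). Its relative Oasl1 differed by -0.47 ± 0.30 between IELs and Naive-like cells and did not pass.

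Oas2 measured 4.77, 4.13 and 4.09 in IELs, 5.66, 6.16 and 6.30 in Naive-like cells and 6.53, 6.10 and 5.84 in Type-1 cells. The lymph node subsets overlapped, and IELs lay below both. Oas2 was 3.27-fold lower in IELs than in Naive-like cells (-1.71 ± 0.27, limma adjusted p = 0.00178) and 3.55-fold lower than in Type-1 cells (-1.83 ± 0.27, adjusted p = 0.00122). Oas3 showed the same arrangement at 4.46, 5.21 and 4.86 in IELs, 6.48, 6.25 and 6.20 in Naive-like cells and 5.64, 6.64 and 6.10 in Type-1 cells. It was 2.76-fold lower than in Naive-like cells (-1.47 ± 0.27, adjusted p = 0.00595) and 2.43-fold lower than in Type-1 cells (-1.28 ± 0.27, adjusted p = 0.0154), the latter lost without IELs 1, IELs 3 or Type-1 2 (0.0528 to 0.0597). Oas1b, a member that lacks synthetase activity, measured 6.60, 5.97 and 6.35, then 7.49, 6.97 and 7.32, then 6.92, 6.99 and 7.12 in the same order. IELs lay below both lymph node subsets, with -0.96 ± 0.22 against Naive-like cells (adjusted p = 0.0229) and -0.71 ± 0.22 against Type-1 cells (adjusted p = 0.102). The first call was lost without IELs 2, IELs 3, Naive-like 1 or Naive-like 3 (0.0703 to 0.119). Oas1g, at 0.31 ± 0.22, was the only one of the 40 genes higher by sign in IELs than in Naive-like cells, on a row of very low intensity. The Oas1 genes are close copies of each other, so their division on the array is uncertain.

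**Figure D3:**
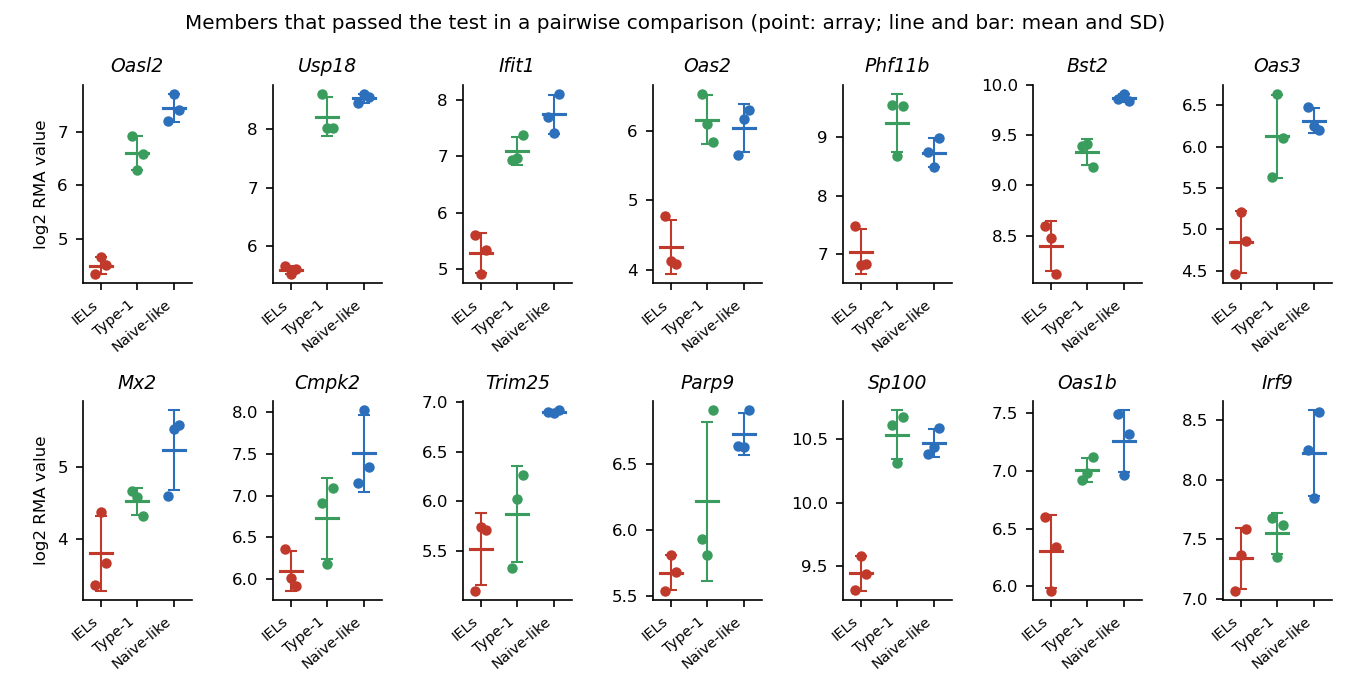
Log2 intensity on each of the 9 arrays for the 14 genes lower in IELs than in Naive-like cells, with the mean and SD of the 3 arrays of each subset. IELs lie below Naive-like cells in every panel, and the Type-1 arrays lie near Naive-like cells for Usp18, Oas2, Phf11b and Sp100 and near IELs for Trim25 and Irf9.

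Isg15 is a ubiquitin-like protein that is joined to other proteins in the interferon response, by the activating enzyme Uba7 and ligases such as Herc6, and is removed again by Usp18. Usp18 also binds Ifnar2 and dampens the receptor. Usp18 measured 5.66, 5.53 and 5.61 in IELs, 8.44, 8.59 and 8.54 in Naive-like cells and 8.59, 8.02 and 8.0 in Type-1 cells. Both lymph node subsets lay over 2 log2 units above every IEL array, and they overlapped with each other. Usp18 was 7.57-fold lower in IELs than in Naive-like cells (-2.92 ± 0.20, limma adjusted p = 3.3e-06) and 6.08-fold lower than in Type-1 cells (-2.60 ± 0.20, adjusted p = 1.09e-05), and Type-1 and Naive-like cells differed by -0.32 ± 0.20 (adjusted p = 0.874).

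Isg15 measured 8.19, 7.92 and 8.32 in IELs, 8.16, 8.25 and 8.11 in Naive-like cells and 8.34, 7.58 and 8.03 in Type-1 cells. All subsets overlapped. The difference between IELs and Naive-like cells was -0.03 ± 0.22 with a 95% interval of -0.51 to 0.45, and that between IELs and Type-1 cells was 0.16 ± 0.22 with an interval of -0.32 to 0.64, so that a 2-fold difference lies outside both intervals. The activating enzyme Uba7 (-0.59) and the ligase Herc6 (-0.51) did not pass between IELs and Naive-like cells.

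Trim25, a ligase that acts on the sensor of viral RNA, measured 5.10, 5.74 and 5.71 in IELs, 6.90, 6.89 and 6.92 in Naive-like cells and 5.32, 6.03 and 6.26 in Type-1 cells. Naive-like cells stood above all other arrays, and IELs and Type-1 cells overlapped. The difference between IELs and Naive-like cells was -1.39 ± 0.26 (limma adjusted p = 0.00679), that between Type-1 and Naive-like cells was -1.03 ± 0.26 (adjusted p = 0.25), the lowest of the 40 in that comparison, and that between IELs and Type-1 cells was -0.36 ± 0.26 (adjusted p = 0.565). Trim30a, a ligase that restrains innate signalling, lay just outside the threshold at -1.02 ± 0.28 (adjusted p = 0.0551), with all IEL arrays below all Naive-like arrays, and passed under 10 of the 24 alternatives (0.00437 to 0.0494), among them leaving out IELs 1, Type-1 1 or Type-1 2. Trim21, the cytoplasmic antibody receptor, gave -0.51 and did not pass.

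Among the poly-ADP-ribose polymerases, Parp9 fell in IELs and Parp14 (-0.44) and Parp12 (-0.25) did not pass. Parp9, the partner of the ligase Dtx3l, measured 5.54, 5.81 and 5.68 in IELs, 6.64, 6.63 and 6.91 in Naive-like cells and 5.93, 5.82 and 6.91 in Type-1 cells. The Type-1 arrays ranged from just above IELs to the top of the Naive-like arrays. The difference of -1.05 ± 0.27 between IELs and Naive-like cells (limma adjusted p = 0.0437) was lost without any 1 of the 6 arrays of those subsets (0.0954 to 0.154).

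Of 6 further genes, Phf11b and Sp100 were lower in IELs in both comparisons. Phf11b, a PHD-finger protein of a cluster of near copies, measured 7.48, 6.82 and 6.83 in IELs, 8.74, 8.48 and 8.97 in Naive-like cells and 9.54, 8.67 and 9.52 in Type-1 cells. All IEL arrays lay below all arrays of both other subsets, and the Type-1 mean was the highest. It was 3.23-fold lower than in Naive-like cells (-1.69 ± 0.28, limma adjusted p = 0.00274) and 4.61-fold lower than in Type-1 cells (-2.20 ± 0.28, adjusted p = 0.000424), and Type-1 against Naive-like cells gave 0.51 ± 0.28 (adjusted p = 0.835). Sp100, a scaffold of nuclear bodies, measured 9.31, 9.58 and 9.44 in IELs, 10.38, 10.44 and 10.59 in Naive-like cells and 10.62, 10.31 and 10.68 in Type-1 cells, with the lymph node subsets overlapping. It differed by -1.03 ± 0.19 against Naive-like cells (adjusted p = 0.00548) and by -1.09 ± 0.19 against Type-1 cells (adjusted p = 0.00397). Its symbol had 4 rows, whose differences between IELs and Naive-like cells were -1.03, -0.58, -1.18 and 0.35, and the mean of the rows gave -0.61 against Naive-like cells (adjusted p = 0.176) and -0.54 against Type-1 cells (0.225), which ended both calls. The chaperone of receptor transport Rtp4 (-0.93), the apoptosis factor Xaf1 (-0.77), Ifi35 (-0.70) and the secreted glycoprotein Lgals3bp (-0.61) did not pass.

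The descriptions of 3 arrays, 1 per subset, carry a date code. Among the 6 arrays without the code, limma called 4 of the 40 between IELs and Naive-like cells, namely Usp18 (-2.92), Oasl2 (-2.96), Ifit1 (-2.30) and Bst2 (-1.35), and 5 between IELs and Type-1 cells, namely Usp18, Oasl2, Oas2, Phf11b and Ifit1. Over all genes these arrays gave 534 and 565 calls, in place of 1152 and 1140. Between the coded arrays alone, with 1 array a subset and no test, 38 of the 40 were lower in IELs than in Naive-like cells. The median difference of the 40 between these arrays was -1.0. For 26 of the 40, among them all 14 called genes, all IEL arrays lay below all Naive-like arrays. Their sign in the coded pair was thus fixed beforehand and adds no support. The share of all genes lower in this pair was not counted. Leaving out IELs 3 took the 14 calls to 9, and those of all genes from 1152 to 833. Leaving out Naive-like 3 moved the median difference of the 40 from -0.79 to -0.56. With the date code as a term in the fit, 15 of the 40 were called between IELs and Naive-like cells, and 1312 of all genes in place of 1152.

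Replicates of a subset differed over the whole set. The median deviation of the 40 genes from their own means over all arrays was -0.59, -0.33 and -0.41 on the IEL arrays, 0.22, 0.24 and 0.50 on the Naive-like arrays and 0.21, -0.16 and 0.21 on the Type-1 arrays, while that of all genes stayed between -0.04 and 0.04. IELs 1 was the lowest of all arrays for 18 of the 40, Naive-like 3 the highest for 14 and Type-1 1 the highest for 13. Type-1 2 was the lowest Type-1 array for 23 of the 40.

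**Figure D4:**
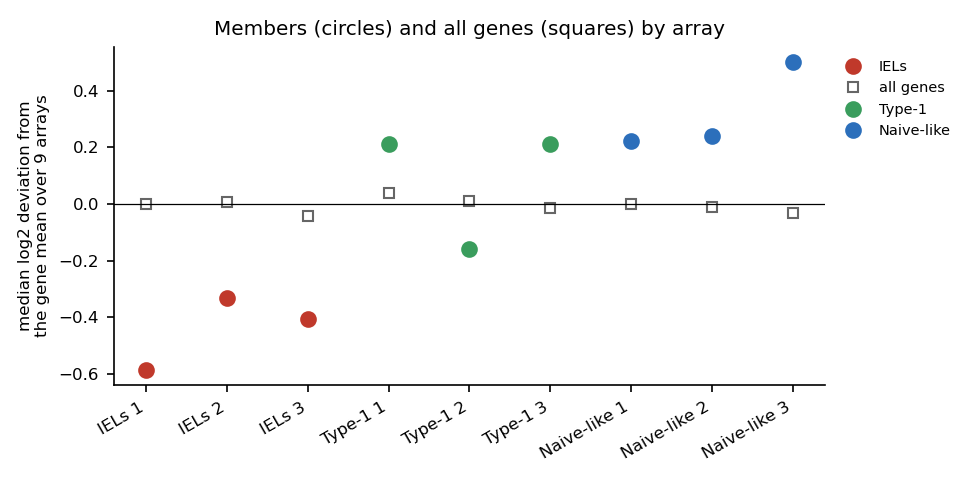
Median deviation, on the log2 scale, of the 40 interferon-stimulated genes and of all genes from each gene's mean over the 9 arrays. The set lies between -0.59 and -0.33 on the IEL arrays and between 0.22 and 0.50 on the Naive-like arrays, Type-1 2 lies below 0 at -0.16, and all genes stay near 0.

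The motif and the measured differences can be set side by side. Of the 14 measured genes whose promoter held GAAA-NN-GAAA, 4 were called between IELs and Naive-like cells, with a median difference of -0.55. Of the 16 measured genes with a promoter but no match, 5 were called, with a median of -0.73, and of the 10 with no promoter entry 5 were called, with a median of -0.94. Isg15, with 3 overlapping matches, and Ifit1, with 2, stood near the opposite ends of the differences. All these calls were lower in IELs, and lower calls made up 1.62% of all genes in that comparison. The share called among all genes with the motif was not counted. These counts and medians are descriptions without a test, and an effect of the motif was not tested.

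The other genes of the interferon pathway were called in both directions. Of 45 listed genes for ligands, receptors, kinases, sensing and feedback, 39 were measured, and between IELs and Naive-like cells 4 fell and 3 rose, with a median difference of 0.01, where 1.62% of all genes fell and 3.57% rose. Between IELs and Type-1 cells 4 fell and 4 rose, with a median of -0.06 (1.41% and 3.73% of all genes). Between Type-1 and Naive-like cells 1 rose and none fell, with a median of 0.02 (0.212% and 0.0721% of all genes). Ifng, the type II interferon made by T cells, measured 8.67, 8.03 and 7.96 in IELs, 4.54, 4.73 and 4.59 in Naive-like cells and 7.55, 6.47 and 6.99 in Type-1 cells. The subsets were separate and ran in the order Naive-like, Type-1, IELs. Ifng was higher by 3.60 ± 0.28 in IELs (limma adjusted p = 7.71e-06) and by 2.38 ± 0.28 in Type-1 cells (adjusted p = 0.00229) than in Naive-like cells. Its difference of 1.22 ± 0.28 between IELs and Type-1 cells (adjusted p = 0.0244) was lost without IELs 1, IELs 2, Type-1 2 or Type-1 3 (0.0538 to 0.0928). The other 8 measured ligands, of type I and type III, were not called, with differences between IELs and Naive-like cells from -0.53 to 0.14.

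The receptor chains of type I interferon did not pass, with Ifnar1 at -0.90 ± 0.36 (limma adjusted p = 0.243) and Ifnar2 at -0.54 ± 0.21 (0.221) between IELs and Naive-like cells, nor did the kinase Tyk2 at -0.31 ± 0.32 (0.793). Ifnar2 passed after a further quantile normalization (0.0478, and 0.0209 against Type-1 cells). The kinase Jak2 was higher by 0.87 ± 0.28 in IELs than in Naive-like cells (0.114), with all IEL arrays above all Naive-like arrays. Jak2 passed in that comparison under 5 of the 24 alternatives (0.021 to 0.0374). The shared kinase Jak1 fell by 0.86 ± 0.22 in IELs against Naive-like cells (0.0368) and by 0.88 against Type-1 cells (0.0347). Of the receptor for interferon-gamma, Ifngr1 rose by 0.95 ± 0.25 (0.0458) and Ifngr2 fell by 1.45 ± 0.35 (0.0297) in IELs against Naive-like cells. Type-1 cells lay on the same side of Naive-like cells at every array, with 0.67 ± 0.25 for Ifngr1 (0.612) and -1.87 ± 0.35 for Ifngr2 (0.0553), and neither gene was called between IELs and Type-1 cells (0.27 and 0.43). Ifngr2 passed between Type-1 and Naive-like cells under 9 of the 24 alternatives (0.00278 to 0.0328), among them the date code as a term (0.011) and leaving out Naive-like 1 (0.0247) or Type-1 3 (0.0301). Il10rb, a chain of the type III receptor, fell by 1.31 ± 0.22 in IELs against Type-1 cells (0.00399). Single arrays decided most of these calls. Jak1 was lost against Naive-like cells without any 1 of the 6 arrays compared (0.0509 to 0.130) and against Type-1 cells without any array but Naive-like 3 (0.0523 to 0.0915), and at -0.57 without the 2 arrays of lowest weight, IELs 1 and Type-1 3 (0.14). Ifngr1 was lost without any array but IELs 1 (0.053 to 0.194), and Ifngr2 without IELs 1, IELs 2, Naive-like 2 or Naive-like 3 (0.09 to 0.133).

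Upstream of interferon production, the endosomal RNA sensor Tlr7 and the kinase Ikbke were lower in IELs. Tlr7 measured 2.94, 2.97 and 3.39 in IELs, 5.78, 5.11 and 5.50 in Naive-like cells and 2.66, 4.66 and 4.60 in Type-1 cells, so that Type-1 cells were split. It fell by 2.36 ± 0.44 against Naive-like cells (limma adjusted p = 0.00595), and against Type-1 cells it passed only without Type-1 1 (0.00413). Ikbke, which phosphorylates interferon regulatory factors, measured 5.86, 6.66 and 6.70, then 7.87, 7.63 and 8.59, then 7.55, 7.37 and 8.13 in the same order. IELs lay below both lymph node subsets, with -1.62 ± 0.31 against Naive-like cells (0.00772) and -1.28 ± 0.31 against Type-1 cells (0.0349), the latter lost without any 1 of 6 arrays, namely all IELs, Naive-like 1, Type-1 1 and Type-1 3 (0.0558 to 0.106), and at -0.78 without the 2 arrays of lowest weight, IELs 1 and Type-1 3 (0.167). Irf8 went the other way at 6.11, 6.85 and 7.08, then 4.57, 5.17 and 4.94, then 5.27, 4.05 and 5.15. This regulatory factor was higher in every IEL array than in every lymph node array, by 1.79 ± 0.34 against Naive-like cells (0.00741) and 1.86 ± 0.34 against Type-1 cells (0.00639). With the mean of the rows of Irf8 the differences were 1.04 and 0.97, and both calls were kept.

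Weaker calls between IELs and Type-1 cells were those of the RNA sensor Tlr3 (-1.11 ± 0.27, limma adjusted p = 0.035), of Irf2, a repressor of the response (1.00 ± 0.23, 0.0275), and of the phosphatase Ptpn11 (1.18 ± 0.31, 0.0486). Each was lost on leaving out single arrays. For Tlr3 these were all IELs, Naive-like 1, Type-1 1 and Type-1 2 (0.0522 to 0.123), for Irf2 all IELs, Type-1 1 and Type-1 2 (0.0718 to 0.103), and for Ptpn11 IELs 2, IELs 3, Naive-like 1, Naive-like 3, Type-1 1 and Type-1 2 (0.0675 to 0.187). Among the 6 arrays without the date code, the call of Ifng between IELs and Naive-like cells was kept, and the other 15 of the 16 calls in the pathway list were lost.

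**Figure D5:**
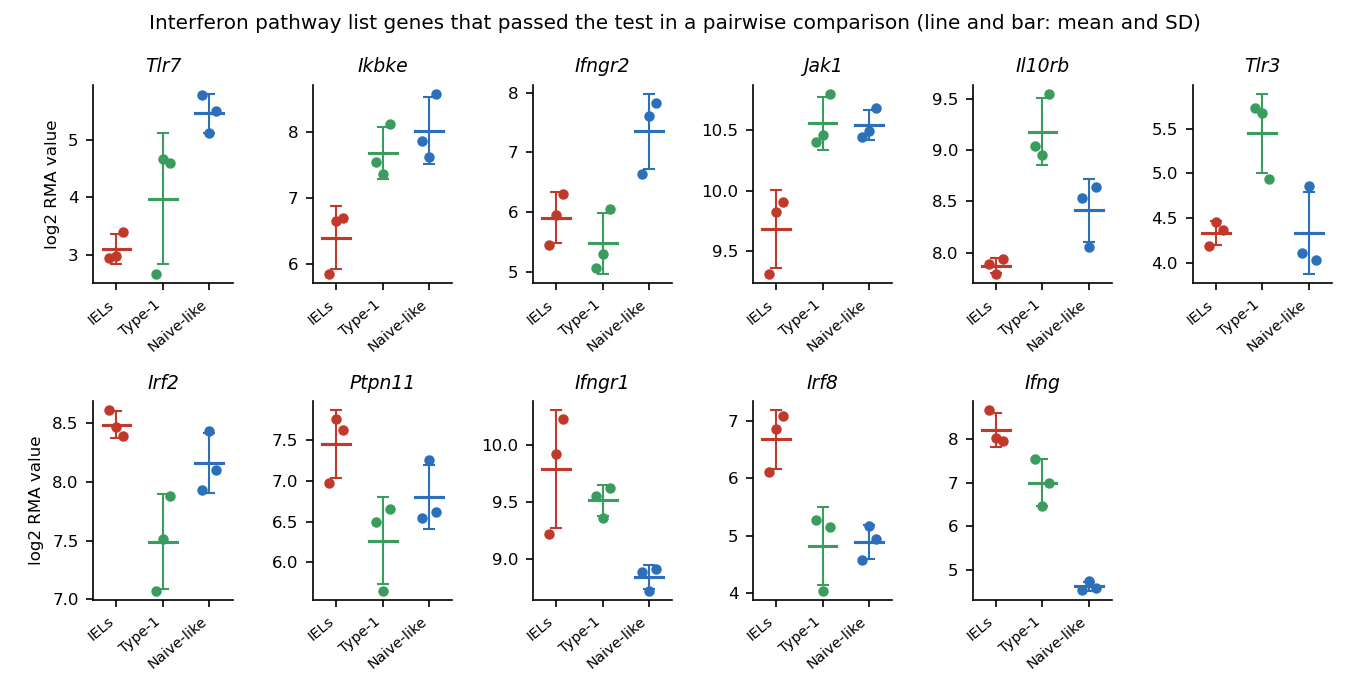
Log2 intensity on each of the 9 arrays for the 11 genes of the interferon pathway list that were called in at least 1 comparison, with the mean and SD of each subset. Ifng and Irf8 are highest in IELs, and Tlr7 and Ikbke are lowest there on average.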

How the data were processed

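The 9 arrays measured total RNA of the 3 subsets. Per the submitters' processing notes the authors used oligo and RMA, which subtracts background, normalizes by quantiles and summarises probes. The deposited values are log2 intensities, and the versions used are not given in these sources. RMA compresses dim genes, so differences of low rows are understated. Of 41345 rows, 23521 carried 1 symbol, 1814 several and 16010 none, and 22180 genes were tested. Array medians ranged from 4.25 to 4.43, and arrays of a subset correlated at 0.947 to 0.982.

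The values were fitted with limma 3.58.1 in R 4.3.3 without further normalization, with 1 mean per subset over all 9 arrays and no covariate. Pairwise contrasts and an F test were taken after eBayes, two-sided, with Benjamini-Hochberg adjustment over all genes and a threshold of 0.05. The 3 comparisons share arrays and are not independent of each other. Errors are standard errors of the fit (median 0.24), folds are powers of the log2 difference, and 3 arrays a subset limit the precision. The labels call the replicates biological without naming animals, so p-values cover only the spread among the arrays, which may be technical. The code was tested on simulated data.

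The genes, lists and tests were chosen with earlier results of these data known, so their counts are descriptions and not independent support. Values on every array were given for each gene called in a pairwise comparison and, in a group of genes by role with none, for that of highest mean, with Isg15 added after its values were seen. Pathway genes were named where called, at most 4 per sublist. Ifnar1, Ifnar2, Tyk2 and Jak2, which were not called in the main fit, were given as well. The response element was fixed with the longer form and the shorter window as alternatives. Alternatives covered normalization, a filter on dim genes, several rows per gene, the spread, batch terms and single arrays.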

Additional observations from a re-analysis of the deposited data

How the results depend on the processing

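No called difference of the 40 genes changed sign under the 24 alternatives, but most of these could not have changed it. For every called gene the arrays of the compared subsets did not overlap, so leaving out arrays could not reverse the sign. Several other alternatives altered only the error or the threshold and left the difference as it was. Usp18, Oasl2, Ifit1 and Bst2 kept their calls between IELs and Naive-like cells under all 24, and Usp18, Oasl2, Ifit1, Oas2 and Phf11b did so between IELs and Type-1 cells. None of the 40 was called between Type-1 and Naive-like cells under any of them. Among the 6 arrays without the date code, limma called 4 of the 40 between IELs and Naive-like cells, 5 between IELs and Type-1 cells and 5 in the F test, and of all genes 534, 565 and 527, with 20 between Type-1 and Naive-like cells, from fewer arrays than the 1152, 1140, 1200 and 63 of the full fit. Array weights gave 1920 genes between IELs and Naive-like cells and 1884 in the F test, with a median of -0.60 for the 40 genes. Leaving out the 2 arrays of lowest weight, IELs 1 and Type-1 3, an alternative chosen after seeing the data, gave 110 genes between Type-1 and Naive-like cells. The response element stood in 23.5% of promoters in its longer form in place of 44.1%, and in 32.4% before the start alone. Alternatives also added calls, such as Xaf1 between IELs and Naive-like cells under 5 of the 24, and between IELs and Type-1 cells Ifi35 without Type-1 3, Samd9l without IELs 1 and Trim30a without Type-1 2. The cause of these moves was not tested.

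Leaving out each array in turn gave 9 to 15 of the 40 between IELs and Naive-like cells, 6 to 9 between IELs and Type-1 cells and 8 to 13 in the F test. Over all genes the counts were 826 to 1227, 724 to 1308 and 771 to 1392, and 34 to 87 between Type-1 and Naive-like cells. The median differences of the 40 ranged from -0.85 to -0.56, from -0.64 to -0.42 and, between the lymph node subsets, from -0.39 to -0.18. The lowest counts over all genes came without IELs 3 for IELs against Type-1 cells (724, and 732 without IELs 2) and without Naive-like 3 for Type-1 against Naive-like cells (34).

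With the replicate number as a block, 17 of the 40 were called between IELs and Naive-like cells, none between Type-1 and Naive-like cells, 8 between IELs and Type-1 cells and 11 in the F test. Over all genes the block gave 1378, 81, 1405 and 1475. With the block Ifngr2 was lower in Type-1 than in Naive-like cells (adjusted p = 0.00278). Deviations of arrays with the same replicate number correlated at -0.01 to 0.38, and not every pair was over 0.1, so the numbers were not taken to pair the samples. The date-coded arrays, all of replicate 3, correlated at 0.23, 0.30 and 0.38. Sets read from the sample numbers in the descriptions, which hold the same coded arrays, correlated at 0.07 to 0.38 over all 9 pairs. Arrays of different sets correlated at -0.29 to 0.12, and the main fit held no term for the set. With that set as a term, 16 of the 40 were called between IELs and Naive-like cells, none between Type-1 and Naive-like cells, 8 between IELs and Type-1 cells and 10 in the F test. Over all genes the term gave 1397, 82, 1452 and 1460, beside 1152, 63, 1140 and 1200 in the main fit. Arrays give no depth, and with no detection calls a low row such as that of Oas1g cannot be told from background.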
